A study of Caenorhabditis elegans with 2 samples.

Results

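Divergent promoter peaks are candidate sites of BED-1 chromatin recovery between the starts of neighbouring protein-coding genes that point away from each other. A peak counted as one when its summit lay on an autosome between such starts, the starts were at most 1000 bases apart, and no tRNA, snoRNA, snRNA or miRNA gene lay within 200 bases. The rule used position alone and no measured value. It found 874 peaks among the 120637 of the authors' ranked list, and 21 of these 874 were also in the authors' main final list of 589. BED-1, a protein with a BED-type zinc finger, was mapped by chromatin immunoprecipitation with sequencing (ChIP-seq) in 2 biological replicates of whole Caenorhabditis elegans. Both were young adults of 63 hours of strain RW12201, in which CRISPR had placed TY1, EGFP and 3xFLAG tags in bed-1, and both had been synchronised as starved first-stage larvae after bleaching. Chromatin was recovered through the EGFP tag with anti-GFP. Both replicates came from the one tagged strain, no untagged or control sample was analysed here, and no group comparison was possible.

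Genes that share a divergent promoter have a single stretch of DNA from which transcription leaves in both directions, so a bound factor there is upstream of both genes at once. In mammals many such promoters belong to genes used in nearly every cell, and in C. elegans some belong to pairs of heat shock genes. In whole animals, strong recovery in few cells and weak recovery in many cells cannot be told apart.

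Sequences under 12 of the 21 final peaks are shown first. They are the 3 peaks of highest signal and 9 others that were picked for words they hold, because the results on words and on the inverted repeat turn on them. All are the forward strand of ce11 from the RefSeq assembly, lie strictly between the gene starts, and are named by the gene on the minus strand and then the gene on the plus strand. The peak of highest signal lay between F44E5.4 and F44E5.5, which encode Hsp70 chaperones, and the 300 bases at chrII:11759312-11759611 are printed with the heat shock element core GAANNTTC in capitals.
F44E5.4/F44E5.5: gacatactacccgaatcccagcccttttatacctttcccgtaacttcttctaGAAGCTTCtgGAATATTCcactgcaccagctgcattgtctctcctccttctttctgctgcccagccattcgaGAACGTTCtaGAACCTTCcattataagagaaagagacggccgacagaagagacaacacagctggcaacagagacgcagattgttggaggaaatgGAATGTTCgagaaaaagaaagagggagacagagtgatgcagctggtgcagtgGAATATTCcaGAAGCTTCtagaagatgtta
The core occurred 7 times, in this stretch and in the whole 350 bases between the starts. Those 350 bases also formed an inverted repeat with arms of 87 bases, of which 86 were identical between the arms. The arms began 0 bases from the start of F44E5.4 and 10 bases from that of F44E5.5. Of the 1665 autosomal divergent pairs, 3 had as many cores or more between their starts, this pair included, and the median pair had 0.

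The next 3 windows are those of K01G5.10/tasp-1 (chrIII:10759151-10759306), rpl-15/K11H12.8 (chrIV:654829-655029) and rpl-20/Y17G9B.5 (chrIV:4749993-4750193), which ranked 2, 3 and 7 by signal. Capitals mark CATACACT in all 3 and TGCCGCA in the first and the last, each on either strand. In rpl-20/Y17G9B.5 one copy of each word overlapped the other.
K01G5.10/tasp-1: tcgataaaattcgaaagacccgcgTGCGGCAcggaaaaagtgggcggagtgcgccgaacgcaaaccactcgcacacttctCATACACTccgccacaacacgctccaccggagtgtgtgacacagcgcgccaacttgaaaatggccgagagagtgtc
rpl-15/K11H12.8: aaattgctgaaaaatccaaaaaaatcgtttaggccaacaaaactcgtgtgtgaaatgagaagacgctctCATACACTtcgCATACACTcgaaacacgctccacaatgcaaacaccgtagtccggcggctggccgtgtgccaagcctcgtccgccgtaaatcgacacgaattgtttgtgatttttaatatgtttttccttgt
rpl-20/Y17G9B.5: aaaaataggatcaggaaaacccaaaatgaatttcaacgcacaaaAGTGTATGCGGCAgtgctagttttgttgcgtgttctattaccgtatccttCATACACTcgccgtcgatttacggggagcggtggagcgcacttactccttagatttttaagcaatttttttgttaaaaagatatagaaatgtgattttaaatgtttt
The other windows with TGCCGCA were those of E04F6.6/pcrg-1 (chrII:7200177-7200377), F09E5.11/bmy-1 (chrII:5358333-5358533), aka-1/ubc-6 (chrII:7478903-7479103), drr-2/set-16 (chrIII:13643612-13643812) and rpl-7A/set-21 (chrIV:4390591-4390755), with the word in capitals. In E04F6.6/pcrg-1, aka-1/ubc-6 and drr-2/set-16 capitals also mark CGTGGC. In aka-1/ubc-6 TGCCGCA occurred on both strands, within an inverted repeat: a run of 41 bases is also found in the reverse complement of the window.
E04F6.6/pcrg-1: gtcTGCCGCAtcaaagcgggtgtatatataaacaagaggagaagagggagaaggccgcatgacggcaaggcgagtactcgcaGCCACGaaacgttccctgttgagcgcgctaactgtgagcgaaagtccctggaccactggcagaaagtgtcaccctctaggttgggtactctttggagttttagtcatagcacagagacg
F09E5.11/bmy-1: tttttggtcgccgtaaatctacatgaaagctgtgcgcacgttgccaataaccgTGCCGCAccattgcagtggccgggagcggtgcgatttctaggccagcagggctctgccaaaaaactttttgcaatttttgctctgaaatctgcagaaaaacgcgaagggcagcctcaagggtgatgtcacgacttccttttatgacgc
aka-1/ubc-6: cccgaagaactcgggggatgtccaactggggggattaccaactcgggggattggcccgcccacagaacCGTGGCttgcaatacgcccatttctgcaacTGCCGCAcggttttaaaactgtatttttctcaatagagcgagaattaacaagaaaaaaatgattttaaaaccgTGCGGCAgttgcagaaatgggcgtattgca
drr-2/set-16: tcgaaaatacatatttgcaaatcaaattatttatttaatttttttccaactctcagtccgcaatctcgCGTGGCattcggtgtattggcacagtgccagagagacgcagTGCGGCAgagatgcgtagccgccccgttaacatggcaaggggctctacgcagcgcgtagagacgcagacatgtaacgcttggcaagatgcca
rpl-7A/set-21: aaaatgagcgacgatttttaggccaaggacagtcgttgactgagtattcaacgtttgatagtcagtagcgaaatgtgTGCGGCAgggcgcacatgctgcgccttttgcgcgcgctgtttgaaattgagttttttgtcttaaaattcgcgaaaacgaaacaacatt
Another 3 of the 10 final windows with CGTGGC were those of rps-23/dpm-3 (chrIV:12391237-12391437), T10B5.4/cct-7 (chrV:1871916-1872116) and cct-8/Y55F3AR.2 (chrIV:1094253-1094453), with CGTGGC in capitals. The word was not in the windows of the other 4 ribosomal protein pairs of the final list, and the windows of F56G4.6/wbp-4, C17B7.10/C17B7.3, F01D4.5/ced-5 and ndk-1/F25H2.6, which hold it, are not shown.
rps-23/dpm-3: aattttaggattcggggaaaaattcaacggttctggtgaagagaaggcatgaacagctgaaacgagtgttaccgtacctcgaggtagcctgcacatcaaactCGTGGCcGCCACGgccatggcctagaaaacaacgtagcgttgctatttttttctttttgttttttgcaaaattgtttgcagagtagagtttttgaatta
T10B5.4/cct-7: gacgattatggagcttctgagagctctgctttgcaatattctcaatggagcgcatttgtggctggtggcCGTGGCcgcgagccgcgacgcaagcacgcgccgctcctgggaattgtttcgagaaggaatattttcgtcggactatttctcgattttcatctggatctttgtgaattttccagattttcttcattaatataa
cct-8/Y55F3AR.2: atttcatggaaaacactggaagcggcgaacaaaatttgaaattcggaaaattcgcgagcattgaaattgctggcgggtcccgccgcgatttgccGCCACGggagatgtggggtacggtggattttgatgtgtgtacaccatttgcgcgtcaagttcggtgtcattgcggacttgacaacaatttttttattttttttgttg

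The 874 peaks lay in 747 of the 1665 autosomal divergent pairs (44.9%), with 1 peak in 626 pairs, 2 in 115 and 3 in 6. All 874 were 260 bases wide. The ranked list is long and most of its peaks are weak, so presence in it says little on its own. The irreproducible discovery rate (IDR) is low where both of the compared peak sets rank a peak high and alike. The main final list holds peaks of the ranked list that passed an IDR of 0.01. Another ranked list compares the replicates, so passing here does not by itself show agreement between the 2 replicates. In that list were 21 of the 874 divergent promoter peaks, or 2.40% (exact Clopper-Pearson 95% interval 1.49 to 3.65, for counting of peaks only), against 0.488% of all ranked peaks. Of the 12388 autosomal promoter peaks that lay outside such gaps, called one-way peaks here (500 bases upstream to 200 bases downstream of a gene start), 77 were in it, or 0.622% (0.491 to 0.776). Both intervals are for counting of peaks only. The difference was not tested, because neighbouring sites in the same libraries are not replicates. On the X chromosome 0 of 57 divergent promoter peaks were in the final list, which allows a share of up to 6.27%, so no difference from the autosomes was detectable. The 21 peaks lay in 21 different pairs, 1.26% of the autosomal pairs, and made up 4.49% of the 468 autosomal peaks of the final list.

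The share differed little between the outer parts and the centre of the chromosomes, with 7 of 331 peaks (2.11%) in the middle of 3 equal parts by length and 14 of 543 (2.58%) in the outer parts. By chromosome it ran from 0.816% on V (2 of 245) to 4.43% on IV (7 of 158). Chromosome I had 3 of 145, chromosome II had 4 of 169 and chromosome III had 5 of 157. The exact 95% intervals of IV, 1.80 to 8.92, and V, 0.099 to 2.92, overlapped.

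The signal is the authors' own value for each peak, in units that no source used here states. Over the 853 divergent promoter peaks outside the final list its median was 21.7 (range 2.01 to 78.6). The 21 inside had a median of 89.2 (interquartile range 79.1 to 104, range 68.8 to 272). These groups differ in signal through how the final list was made. The 77 one-way peaks in the final list had a median of 76.7 (71.2 to 94.3) with a range of 3.60 to 255, so the divergent and one-way peaks overlapped widely. Outside the final list, 3 divergent promoter peaks exceeded 68.8. They were F54D5.9/dnj-13 with 78.6, div-1/cor-1 with 77.4 and cux-7/C07H6.2 with 77.2.

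**Figure D1:**
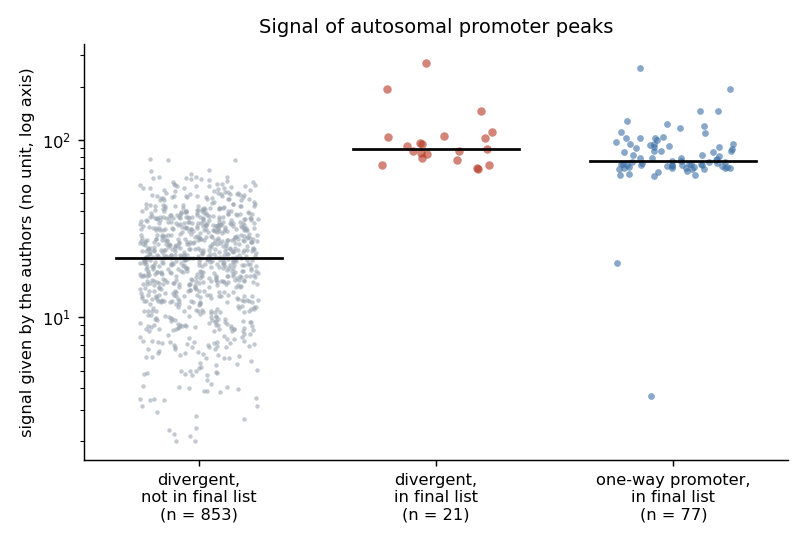
Signal of autosomal promoter peaks, as given by the authors without a unit, on a log axis. Each point is a peak and each line a group median. The 21 divergent promoter peaks of the final list lie between 68.8 and 272, and the 77 one-way peaks of that list lie between 3.60 and 255.

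The replicates were called separately by the authors as well, which gives each peak a value per replicate from its own ranked list. These lists were made separately, so their values are set side by side and not tested. Of the 874 peaks, 378 overlapped a peak in the ranked list of replicate 1, 419 in that of replicate 2, 213 in both and 290 in neither. The 20 final peaks found in replicate 1 had a median signal of 42.9 there (24.5 to 144), against 17.3 (highest 41.9) for the other divergent promoter peaks. In replicate 2 the 21 final peaks had a median of 47.3 (31.3 to 130), against 19.1 (highest 45.5). The signal of 10 final peaks in replicate 1 and of 12 in replicate 2 was above that of every other divergent promoter peak of that replicate. The final list was made from both replicates together, so higher values of its peaks in each replicate follow from that choice and are no separate support. Replicate 1 was the higher one for 7 final peaks and replicate 2 for 13. In the 20 final peaks with both values, the main signal was 0.999 times the sum over both replicates in the median (0.938 to 1.08).

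Across the 774 divergent promoter peaks in the ranked list that compares the replicates, the signals had a Spearman correlation of 0.273 and, on the log2 scale, a Pearson correlation of 0.277. It was 0.252 over all peaks of that list and 0.201 over 10983 one-way peaks. The first signals of that list equalled those of replicate 1's own list for 362 of 373 peaks with both, and the second those of replicate 2's for 373 of 394. The correlations are descriptions over sites that share the same libraries, and they are weak. With the 213 peaks found in both replicates' own ranked lists, Spearman's rho was 0.450 and Pearson's r on the log2 scale was 0.536. Within the 21 final peaks rho was 0.162, and r was 0.506.

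**Figure D2:**
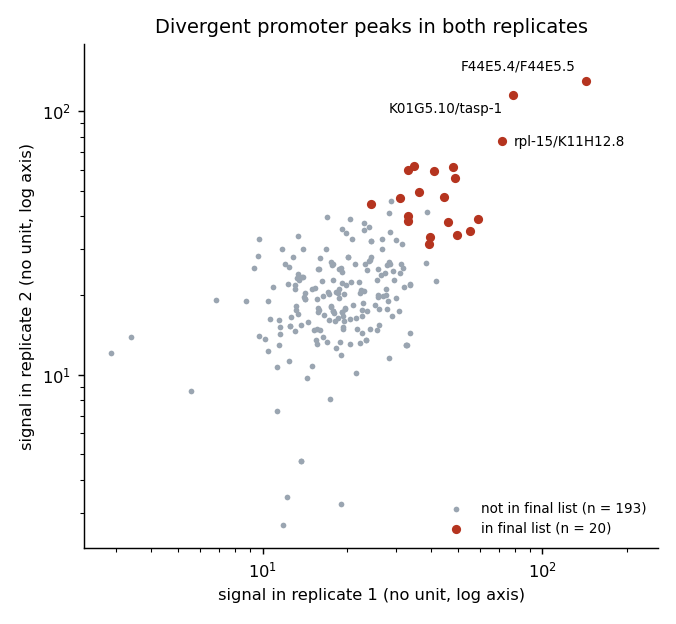
Signal of the 213 divergent promoter peaks found in both replicates' own ranked lists, replicate 1 across and replicate 2 up, both without a unit on log axes. Red points are the 20 peaks that are also in the main final list, and the 3 of highest signal are named. The red points start at 24.5 in replicate 1 and 31.3 in replicate 2, and some grey points exceed these values in each replicate.

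Each replicate also has its own, much shorter final list. In that of replicate 1 were 5 divergent promoter peaks (0.572%), against 0.0821% of all ranked peaks and 0.121% of one-way peaks (15). In that of replicate 2 were 7 (0.801%), against 0.0837% of all ranked peaks and 0.0727% of one-way peaks (9). In both were 3 peaks, F44E5.4/F44E5.5, K01G5.10/tasp-1 and rpl-15/K11H12.8, the 3 of highest signal. The list of replicate 1 also held E04F6.6/pcrg-1 and drr-2/set-16. That of replicate 2 also held rpl-7A/set-21, F56G4.6/wbp-4, aka-1/ubc-6 and lron-10/hpr-9. The remaining 12 of the 21 were in neither replicate's own list and rest on both replicates together. In the list that the authors name conservative were 21 divergent promoter peaks, against 0.453% of all ranked peaks, of which 18 were shared with the main list. The 3 main peaks missing from it were rpl-7A/set-21, sec-61.B/trap-3 and prp-19/K10D2.5, and the 3 peaks it added were C35A5.8/hda-11, cux-7/C07H6.2 and F54D5.9/dnj-13.

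F44E5.4/F44E5.5, the Hsp70 pair, had the highest signal, 272, with 144 in replicate 1 and 130 in replicate 2. Both replicates placed it first among the divergent promoter peaks. The summit at position 11759459 of chromosome II was 148 bases from the start of F44E5.4 and 203 from that of F44E5.5, on the F44E5.4 side of the middle. These genes carry no hsp symbol in the annotation and so are not in the list of chaperones by symbol. Of the 31-base words within 100 bases of its summit, 94.2% occurred once in the genome, and how reads that match both arms were placed is not stated in the sources used.

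Genes for cytoplasmic ribosomal proteins, which build the protein-making particle, were at 5 of the 21 final peaks. Of 81 such genes by symbol, 45 autosomal divergent pairs held at least 1, and 23 of these pairs held 26 ranked peaks. The 5 in the final list were 19.2% of these 26 and 11.1% of the 45 pairs. Over all, the shares were 2.40% of divergent promoter peaks and 1.26% of pairs. The gene lists were chosen with earlier results of these data known, so these shares are a description only. The median signal of the 26 was 27.0, close to the 22.1 of all 874. The 5 final peaks were the 5 strongest, which is tied to how the final list was made. Among all 26, signals ran from 2.39 to 145.

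The peak of rpl-15, a large-subunit protein gene, had a signal of 145, with 71.5 and 77.2 in replicates 1 and 2. Its summit was 353 bases upstream of rpl-15 and 461 bases upstream of K11H12.8, annotated as a growth hormone-inducible transmembrane protein. The rpl-20 peak, also beside a large-subunit gene, had a signal of 103, with 34.8 and 62.2 in the replicates, and lay closer to its partner Y17G9B.5 (147 bases) than to rpl-20 (315 bases). Y17G9B.5 is annotated as an ECSIT homolog. The peak of rpl-7A had a signal of 84.0 and 62.1 in replicate 2, but no peak overlapped it in the ranked list of replicate 1, where the list that compares the replicates gives 18.6 for the first of its peak sets. It was 65 bases from rpl-7A and 189 from set-21, a SET domain gene, and another final peak lay 1689 bases away. This was the single case of another final peak within 2000 bases, and the single final peak unmatched in a replicate.

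The small-subunit genes rps-19 and rps-23 held the other ribosomal peaks of the final list. The rps-19 peak had a signal of 83.5, with 49.6 and 33.9 in replicates 1 and 2, and was 288 bases from rps-19 and 157 from hsr-9, the worm counterpart of mammalian 53BP1. The rps-23 peak had a signal of 68.8, the lowest of the 21, with 33.2 and 38.4 in the replicates. It lay near the middle, 284 bases from rps-23 and 250 from dpm-3, which encodes a subunit of dolichol-phosphate mannose synthase. In 3 of these 5 pairs, rpl-20, rps-19 and rps-23, the summit was nearer to the partner than to the ribosomal gene.

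Just outside the final list, the rpl-12/lin-54 peak had a signal of 61.3 (IDR 0.0296) and the rps-20/ekl-4 peak had 58.7 (IDR 0.0458). LIN-54 is the DNA-binding subunit of the DREAM complex, a repressor of cell cycle genes. The other 19 ribosomal peaks had signals of at most 47.0.

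Chaperone genes by symbol (hsp, cct and dnj) were in 24 pairs with 16 ranked peaks, and 2 of these peaks (12.5%) were in the final list. Both belonged to subunits of the CCT chaperonin, the ring that folds actin and tubulin. The cct-8 peak had a signal of 92.6, with 36.3 and 49.6 in replicates 1 and 2, and lay 433 bases from cct-8 and 188 from Y55F3AR.2. The cct-7 peak had 72.0, with 39.8 and 33.3, and lay almost midway, 230 bases from cct-7 and 209 from T10B5.4, annotated as an aralkylamine N-acetyltransferase. The peak between F54D5.9 and dnj-13, a DnaJ-type chaperone gene, had the highest signal of the divergent promoter peaks outside the final list (78.6, IDR 0.0282). Its summit lay inside a further protein-coding gene, dhgd-1, and it overlapped no peak in the ranked list of replicate 1. The list that compares the replicates nevertheless gives it 38.4 for the first of its peak sets and 34.8 for the second.

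**Figure D3:**
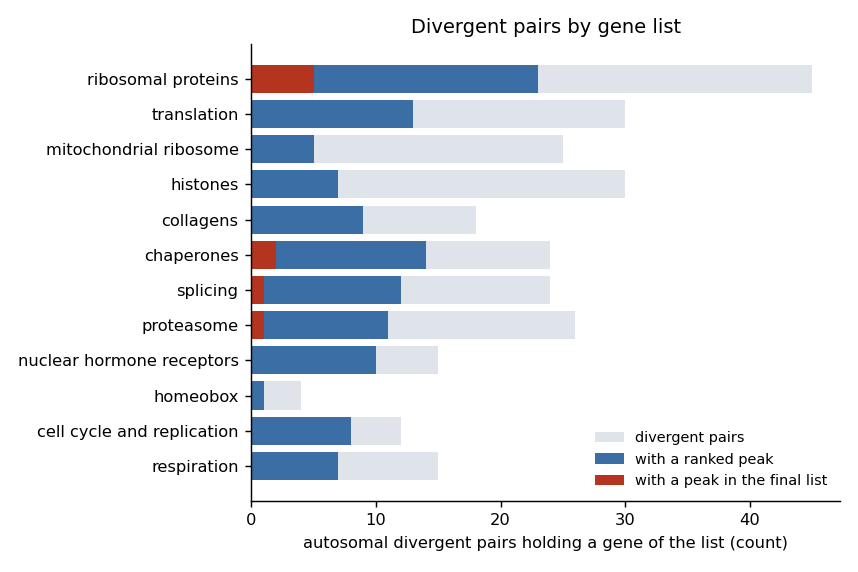
Autosomal divergent pairs that hold a gene of each list (grey), those with at least 1 ranked peak (blue) and those with a peak in the main final list (red), as overlaid counts. Ribosomal proteins have 5 red pairs of 45, chaperones 2 of 24, splicing 1 of 24 and proteasome 1 of 26, and the other 8 lists drawn have 0.

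The remaining lists held few final peaks or none. Splicing genes were in 24 pairs with 14 ranked peaks and 1 final peak, that of prp-19, the ubiquitin ligase of the spliceosome, with a signal of 69.4 (39.2 and 31.3 in replicates 1 and 2). Its summit was 622 bases from prp-19 and 53 from K10D2.5. Proteasome and ubiquitin-conjugating genes were in 26 pairs with 12 ranked peaks and 1 final peak, aka-1/ubc-6, with 87.0 (33.0 and 59.7). All lists went by gene symbol alone, so they can miss genes of the same role. No peak was in the final list among 18 of translation factors and tRNA synthetases or 13 of nuclear hormone receptors. Nor was one among 9 of cuticle collagens or 9 of cell cycle and replication genes. The same held for 7 each of mitochondrial ribosomal protein, histone and respiration genes and for the 1 homeobox peak. With so few peaks a list, 0 does not show a lower share than that of all divergent promoter peaks. No bed gene was in an autosomal divergent pair.

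Among the final peaks with no gene on a list, K01G5.10/tasp-1 had the second highest signal of the 21, 194, with 78.8 in replicate 1 and 115 in replicate 2. The gene tasp-1 is named for taspase, a threonine protease, and K01G5.10 is annotated as a HAD-like hydrolase. Its summit, at position 10759251 of chromosome III, lay 56 bases from tasp-1 and 729 from K01G5.10, far to one side of the gap. The F56G4.6/wbp-4 peak had 111 (48.1 and 61.4 in replicates 1 and 2) and was near the middle of a gap of 286 bases. The lron-10/hpr-9 peak had 106 (48.8 and 55.7) in the shortest gap of the 21, 182 bases, and hpr-9 is the worm counterpart of the checkpoint gene rad9 of fission yeast. C17B7.10/C17B7.3, where C17B7.10 is annotated as an M13 peptidase, had 104 (41.1 and 59.4). All 4 were found in both replicates, and replicate 2 gave the higher value in each.

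The larp-1/wip-1 peak, beside a La-related RNA-binding protein gene and the gene of a WASP-interacting protein, had a signal of 96.1 (44.6 and 47.3 in replicates 1 and 2) in the longest gap of the 21, 989 bases. The drr-2/set-16 peak had 86.8 (55.2 and 35.1) and lay 142 bases from drr-2, an RNA-recognition motif gene, and 204 from set-16, the worm MLL-type histone methyltransferase. F01D4.5/ced-5, beside the Dock180-type gene of cell corpse engulfment, had 79.1 (33.1 and 40.1).

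At sec-61.B/trap-3, where both genes encode parts of the translocon that carries proteins into the endoplasmic reticulum, the signal was 72.7 (24.5 and 44.5 in replicates 1 and 2), with the lowest value of the 20 in replicate 1. F09E5.11/bmy-1, where bmy-1 is annotated as a Boca or MESD type chaperone of that compartment, had 89.2 (46.2 and 38.1), the median of the 21. The ndk-1/F25H2.6 peak, at the gene of a nucleoside diphosphate kinase, had 77.3 (31.0 and 46.8) and lay closest to a start, 20 bases from that of ndk-1. E04F6.6/pcrg-1, where pcrg-1 is the parkin co-regulated gene, had 94.8 (58.8 and 39.0).

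Some of these gaps hold a non-coding gene of a kind the rule did not exclude. This was so within 200 bases of 5 of the 21 summits, and of 71 of all 874 (8.12%). The E04F6.6/pcrg-1 summit lay inside mrpr-1 (chrII:7200233-7200418, plus strand), named for the RNA of RNase MRP, 44 bases past its start. The cct-7 summit lay 36 bases past the start of the non-coding gene T10B5.13, and that of sec-61.B/trap-3 lay in Y38F2AR.16 and Y38F2AR.17, which overlap on opposite strands. F09E5.18 held the bmy-1 summit, with F09E5.19 a single base away on the other strand, and Y55F3AR.4 was 144 bases from the cct-8 summit. Which of these transcripts a peak belongs to was not tested. Without any peak near such a gene, 16 of 803 (1.99%) were in the final list.

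At the edge of the final list the values were close. Just inside were ndk-1/F25H2.6 (IDR 0.0094, signal 77.3), sec-61.B/trap-3 (0.00876, 72.7) and rps-23/dpm-3 (0.00788, 68.8). Just outside were C35A5.8/hda-11 (0.0106, 64.2), F59B10.2/F59B10.3 (0.0132, 67.2) and cux-7/C07H6.2 (0.0140, 77.2), where hda-11 is a histone deacetylase gene. None of these 6 was in a replicate's own final list. All 21 divergent promoter peaks that passed the IDR of 0.01 were kept in the final list by the authors, whereas 115 of the 704 passing peaks of all kinds were left out.

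The final summits were seldom next to a start. Their median distance to the nearer start was 171 bases (95% interval 131 to 250 from the order of the values, range 20 to 365), against 130 for all 874. Within 100 bases of a start were 5 of 21 (23.8%), against 353 of 874 (40.4%). In the middle of 3 equal parts of the gap were 11 of 21 (52.4%), against 284 of 874 (32.5%). The start on the plus strand was the nearer one for 11 peaks and that on the minus strand for 10, as even as for all peaks (454 and 419). No final summit lay within a further protein-coding gene, as 12 of the 874 did.

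**Figure D4:**
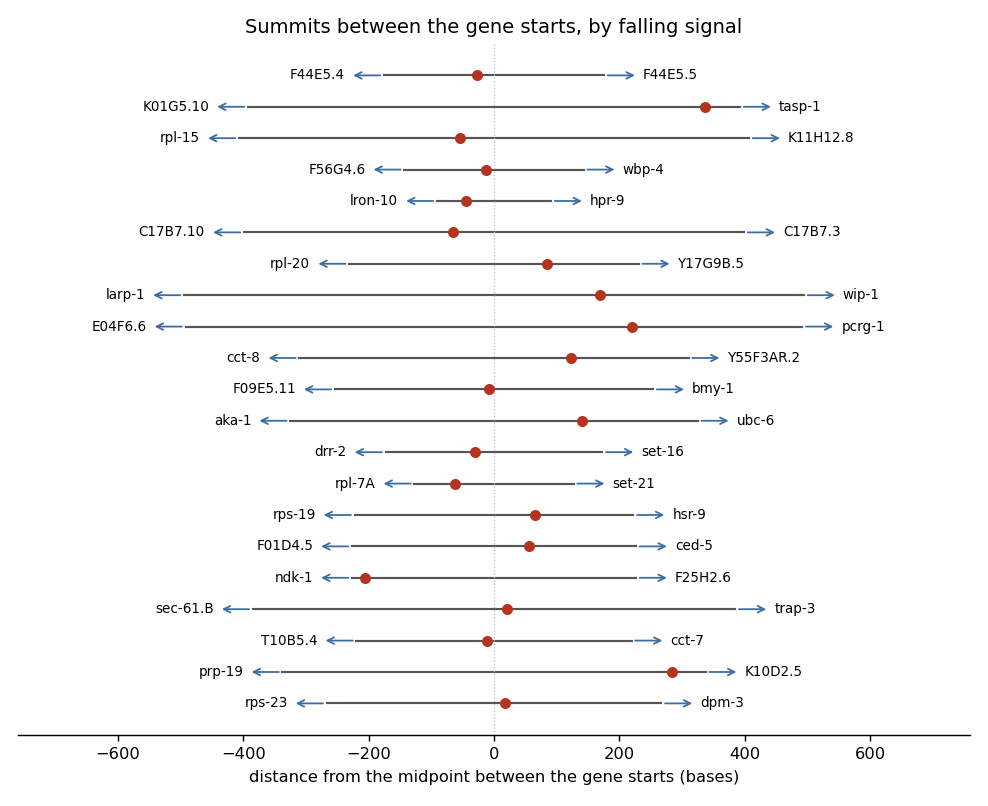
The 21 divergent promoter peaks of the main final list, by falling signal from top to bottom. Each line spans a gap, with its midpoint at 0 bases, arrows show the direction of the genes and red dots are the summits. The summits of K01G5.10/tasp-1, lron-10/hpr-9, rpl-7A/set-21, ndk-1/F25H2.6 and prp-19/K10D2.5 lie within 100 bases of a start, and 11 of the 21 lie in the middle of 3 equal parts.

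Longer gaps have more room for a summit, and any effect beyond length was not tested. They more often held a ranked peak. Pairs with starts at most 250 bases apart held one in 18.3% of cases (361 pairs), rising to 38.3% from there up to 500 bases (517), 56.3% up to 750 (455) and 68.4% up to 1000 (332). The share of ranked peaks that were in the final list, which has another base, did not rise steadily. It was 1 of 66 (1.52%), 9 of 207 (4.35%), 5 of 300 (1.67%) and 6 of 301 (1.99%) in the same order. Set against pairs, final peaks were at 1 of 361, 9 of 517, 5 of 455 and 6 of 332. The median gap was 508 bases for the 21 peaks, 634 for all 874 and 475 for all 1665 pairs.

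GC content was higher at the final peaks. Over the summit and 100 bases on each side its median was 46.8% (interquartile range 44.3 to 50.2, range 36.8 to 57.2) in the 21, against 36.3% in the other 853 (32.3 to 40.8). One-way final peaks had 43.3% (38.8 to 47.3), all 589 final peaks had 45.8%, and all autosomal ranked peaks had 38.3%. High GC content was thus shared with the rest of the final list. Its part in the peak calls was not tested.

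**Figure D5:**
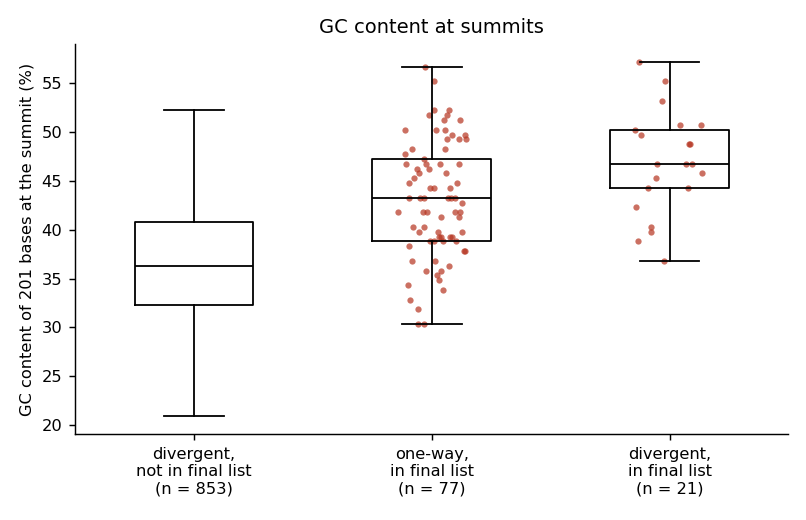
GC content, in percent, of the summit and 100 bases on each side for divergent promoter peaks outside the final list, one-way peaks in it and divergent promoter peaks in it. Boxes show the quartiles with the median, whiskers reach the farthest value within 1.5 interquartile ranges, and points are single peaks for the smaller groups. The medians are 36.3%, 43.3% and 46.8%.

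Short words were counted on both strands in the same windows. CGATA was in 1 of the 21 final windows (4.76%), against 21.5% of all 874, 20.1% of autosomal ranked peaks and 16.9% of one-way final peaks. TGATAA was in 0, against 19.8% of the 874, 16.0% of autosomal ranked peaks and 10.4% of one-way final peaks. Among the 90 other divergent promoter peaks with a GC content of 44.3 to 50.2%, TGATAA was in 6.67% and CGATA in 18.9%. The palindrome TATCGATA, which contains CGATA, was in 0 of 21 and in 0.229% of the 874. CCGCCC was in 5 (23.8%), against 6.52% of the 874 and 16.7% of the 90 of like GC content, and GCGCGC in 3 (14.3%), against 5.84% and 9 of the 90. GAGAGA was in 4, against 15.7% and 38.9%. CACGTG was in 1 (4.76%), against 5.61% of the 874 and 7.78% of the 90 of like GC content. TATAAA was in 3 (14.3%), against 23.8% of the 874 but 9 of the 90. A run of 8 T was in 2 (9.52%), against 17.3% of the 874 but 7.78% of the 90. TTTTCAG, a 3' splice site word, was in 1 (4.76%), against 19.3% of the 874 but 5.56% of the 90. Set against the 90, TATAAA, the run of 8 T and TTTTCAG were thus not clearly rarer in the final windows.

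Further words were picked after the windows had been seen, from all words of 6 to 8 bases in these 21 windows, so their counts there are a description and carry no weight as evidence. TGCCGCA was in 7 of the 21 (33.3%), against 3.43% of the 874, 7.78% of the 90 of like GC content, 1.69% of autosomal ranked peaks, 2.60% of one-way final peaks and 1.76% of the 568 other final peaks. The 7 pairs are the ones printed with it in capitals above. The word was also in 23 of the 853 divergent promoter peaks outside the final list (2.70%). CGTGGC was in 10 of the 21 (47.6%), against 8.81% of the 874, 18.9% of the 90, 13.0% of one-way final peaks and 68 of the 568 other final peaks. At least 1 of TGCCGCA and CGTGGC was in 14 of the 21, and both were in 3.

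CATACACT was noticed in the printed windows of K01G5.10/tasp-1, rpl-15/K11H12.8 and rpl-20/Y17G9B.5 and was in no other of the 21. It was in 1.14% of the 874, 0.467% of autosomal ranked peaks, 0 of 77 one-way final peaks and 0.352% of the other final peaks. CGCTCCA was in 6 (28.6%), against 3.55% of the 874 and 3.90% of one-way final peaks. TAGGCCA was in 6, against 4.58% of the 874 and 9.09% of one-way final peaks. TGGCNNAG, where N is any base, was in 7 (33.3%), against 7.78% of the 874. It was also in 18.2% of one-way final peaks and 13.6% of the other final peaks. The core GAANNTTC was in 5 (23.8%), against 16.0% of the 874, so it set the Hsp70 pair apart by its number of copies there and not by its presence. No word counted here was in all 21 windows, and the larp-1/wip-1 window held none of them.

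Most windows could be placed without doubt. All 31-base words were found once in the genome in the windows of 752 of the 874 peaks (86.0%) and of 17 of the 21. The 4 others were F44E5.4/F44E5.5, prp-19/K10D2.5 with 98.2% of its words found once, rpl-7A/set-21 with 83.6% and aka-1/ubc-6 with 21.1%. For aka-1/ubc-6, whose window holds the inverted repeat, most of the sequence thus has another copy, and the signal may include reads from elsewhere, which was not tested. With unique windows alone, 17 of 752 (2.26%) were in the final list.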

How the data were processed

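ChIP-seq of tagged BED-1 was analysed in 2 biological replicates of 1 group. Peaks had been called by the authors per replicate and on both replicates together, in ce11, per the deposited file descriptions; aligner, peak caller and versions are not given in any source used. Per peak, the deposited lists give a signal score, whose scale is not stated, a score derived from the IDR, and the −log10 of the global IDR. Gene starts came from Ensembl release 115 for WBcel235, which is ce11, and sequence from RefSeq's copy of that assembly. Neighbouring genes were consecutive protein-coding starts. A peak counted as in another list by identical coordinates (main final list) or any overlap, taking the overlapping peak of highest signal. GC content and words were read from 100 bases before to 100 after the summit. Everything was computed with Python 3.11.15, numpy 2.4.6, pandas 2.3.3 and scipy 1.17.1, drawn with matplotlib 3.10.9, and checked on simulated data. No test across peaks was run. The depth is unknown, since read counts were not part of the files used. The members and the gene lists were chosen with earlier results of these data known. Named are all 21 peaks of the main final list, those in either replicate's own final list, the 3 on each side of the IDR threshold and the 3 of highest signal outside the list; a pair of ribosomal peaks below the threshold was named after its values were seen.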

Additional observations from a re-analysis of the deposited data

How the results depend on the processing

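The number of divergent promoter peaks, their count and share in the main final list, the median signal and distance of those in it and the correlation between replicates were recomputed under other choices, and 57 of 72 values stayed within 1.5 times the count, the 95% interval or 0.1 of the correlation. With starts at most 2000 bases apart there were 2015 peaks, of which 31 (1.54%) were in the final list. With starts at most 500 bases apart there were 273, of which 10 (3.66%) were in it. The share was thus lower with the longer limit and higher with the shorter one. With an IDR of at most 0.001, 5 (0.572%) remained, with a median signal of 145. Each replicate's own final list gave 5 to 7 peaks (0.572% to 0.801%). The median signal of these peaks was 111 to 145, taken from the main list of both replicates together and not from the single replicate. The correlation was 0.162 within the final peaks and 0.450 with the replicates' own ranked lists. The choice to leave out peaks near any other non-coding gene was added after seeing the data. No paired analysis was possible because there is 1 group. With 21 final peaks, a share within them moves by several percent with each peak, and the depth behind the signals is unknown.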
